A study of Mus musculus with 4 samples.

Results

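Interferon response genes were followed across 4 coronal sections of mouse brain that include the striatum, imaged by MERFISH. This imaging method reads out barcoded probes over several rounds and so locates individual mRNA molecules of many genes in a tissue section. The set holds 9 of the 383 genes of the panel, listed by name and chosen with earlier results of these data known: Ifnar1, Parp9, Parp14, Slfn5, Isg20, Ube2l6, Ifi27, Ly6e and Ly6a. Sections 1 and 2 of the young group came from mice of 2 months, and sections 1 and 2 of the aged group from mice of 18 months. Both groups were C57BL/6NTac mice for which the sources used here name no treatment or transgene, and both sexes were used in the study, although the sex behind each section is not stated. The labels do not tie the sections to animals, whereas the study calls its replicates biological and a legend on its MERFISH data counts as many mice as there are sections.

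Type I interferons are secreted when a cell senses foreign or misplaced nucleic acid, and they bind a receptor of which Ifnar1 encodes one chain. Receptor kinases then activate STAT proteins, which enter the nucleus and, together with interferon regulatory factors, switch on genes with interferon-stimulated response elements in their promoters. In the brain, microglia, endothelial cells and astrocytes are all known to respond, and a raised interferon signature has been described in aging tissue.

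The other 8 members are known as targets of this pathway. Parp9 and Parp14 encode ADP-ribosyltransferase family proteins of the antiviral response, and Slfn5 encodes a member of the Schlafen family. Isg20 encodes an exonuclease that degrades RNA, Ube2l6 the enzyme that passes the ubiquitin-like protein ISG15 to its targets, and Ifi27 a small hydrophobic membrane protein. Ly6e and Ly6a encode glycolipid-anchored surface proteins, and Ly6a, also called Sca-1, is a known marker of mouse brain endothelium. On GRCm38 these are all protein-coding genes. Parp9 (chr16:35938470-35972605, plus strand) and Parp14 (chr16:35832874-35871544, minus strand) lie 66925 bp apart, with Ifnar1 on the same chromosome (chr16:91485238-91507441, plus strand). Ly6e (chr15:74955051-74959905, plus strand) and Ly6a (chr15:74994877-74998031, minus strand) are 34971 bp apart. Slfn5 lies at chr11:82951349-82964840, Isg20 at chr7:78913424-78920396, Ube2l6 at chr2:84798828-84810335 and Ifi27 at chr12:103434211-103440239, all on the plus strand.

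Promoter sequence is shown for Slfn5 and Ube2l6, which were high together with Parp9 and Parp14 in small areas described at the end, and for Cxcl10, a chemokine gene that was high in the same areas. RefSeq promoter windows (GRCm38.p6) were found for 4 of the 9 members, namely Slfn5, Isg20, Ube2l6 and Ifnar1. Within 250 bases ahead of the start, and on both strands, the core of the interferon-stimulated response element, GAAA followed by any 2 bases and a further GAAA, occurred in 2.98% of 32851 RefSeq windows, and TTCNNNGAA, the core of a STAT site, in 7.02%. The first of these strings begins 155 bases ahead of the start of Slfn5 and 213 bases ahead of that of Cxcl10. TTCNNNGAA lies 73 bases ahead of 1 of the 3 annotated starts of Isg20, and neither string occurs in the windows of Ube2l6 and Ifnar1. In the sequences below the capitals mark this response element core. The stretch of Slfn5 (chr11:82951852-82951984, plus strand) ends where an exon of a longer noncoding transcript of the gene begins, and it lies in an intron of that transcript and ahead of the coding transcripts.
Slfn5: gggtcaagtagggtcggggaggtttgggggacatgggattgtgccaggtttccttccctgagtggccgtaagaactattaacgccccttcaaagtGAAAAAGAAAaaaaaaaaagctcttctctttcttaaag
Ube2l6 (chr2:84798578-84798827, plus strand): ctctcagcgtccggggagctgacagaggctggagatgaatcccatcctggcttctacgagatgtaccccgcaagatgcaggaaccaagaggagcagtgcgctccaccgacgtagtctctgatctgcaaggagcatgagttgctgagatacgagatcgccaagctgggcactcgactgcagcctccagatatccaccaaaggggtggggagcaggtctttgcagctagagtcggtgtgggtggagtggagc
Cxcl10 (chr5:92348890-92349139, minus strand): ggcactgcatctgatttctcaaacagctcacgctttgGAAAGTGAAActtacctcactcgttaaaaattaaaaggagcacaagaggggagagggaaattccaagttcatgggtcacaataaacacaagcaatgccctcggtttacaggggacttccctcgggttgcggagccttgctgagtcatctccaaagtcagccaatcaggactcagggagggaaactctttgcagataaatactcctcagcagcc

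After removal of cells with few genes or a small volume, 68011 and 70774 cells remained at 2 months and 68415 and 74624 at 18 months. The median cell held 400 and 325 transcripts at 2 months and 215 and 293 at 18 months, so aged section 1 was the shallowest. Cells of the whole section were used, so class levels and age tests are not those of the striatum alone. Surroundings rich in medium spiny neuron-like cells were found for 459 and 548 of 14280 and 19126 neuron-like cells at 2 months. At 18 months these were 685 and 625 of 18078 and 18716. Of astrocyte-like cells they were 1438 and 1239 of 5206 and 5474 at 2 months. Cells were clustered without the 9 members and without 16 other interferon pathway genes of the panel, and clusters were named from marker lists, so that no class is defined by the genes reported here. Of each gene the level in a class is its number of transcripts per 10000 transcripts of all panel genes in the cells of that class and section. A level is relative to the panel and was compared between classes, not between genes. Cells that also carried markers of another, not closely related class were left out of the levels. Fewer cells with a gene and less RNA per cell cannot be told apart in such sums.

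More members were above the mean of the other classes in vessel-associated and immune cells than in neurons and in glia of the astrocyte and oligodendrocyte lineages. In a single edgeR quasi-likelihood fit over 11 classes, with the section as a block and Benjamini-Hochberg adjustment over all panel genes, each class was set against the mean of the other classes. The mean was taken over log levels, so a class can pass as higher while its level lies under the plain mean of the others. The test passed as higher for 8 of the 9 members in macrophage-like cells, where 44.9% of all panel genes passed, for 7 in endothelial-like cells (37.1% of all genes) and for 7 in mural-like cells (38.6%). Fibroblast-like cells passed for 5 members (40.2%) and microglia-like cells for 5 (27.9%). Passing members numbered 2 in oligodendrocyte precursor-like cells (44.4%) and 1 each in astrocyte-like (28.7%), oligodendrocyte-like (20.9%), neuroblast-like (34.5%) and neuron-like cells (35.5%). In medium spiny neuron-like cells 0 of 9 were higher (29.5% of all genes were) and all 9 were lower. The median log2 difference of the members was 1.42 in endothelial-like cells, beside -0.15 over all panel genes, -1.33 in medium spiny neuron-like cells, beside -0.70, -1.61 in astrocyte-like cells, beside -0.44, and -1.71 in oligodendrocyte-like cells, beside -0.69. Of the 16 other pathway genes, 14 passed as higher in macrophage-like cells, 12 in microglia-like cells, 9 each in endothelial-like and mural-like cells, 2 in medium spiny neuron-like cells and 0 in oligodendrocyte-like cells, where 13 passed as lower in the same edgeR fit.

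**Figure D1:**
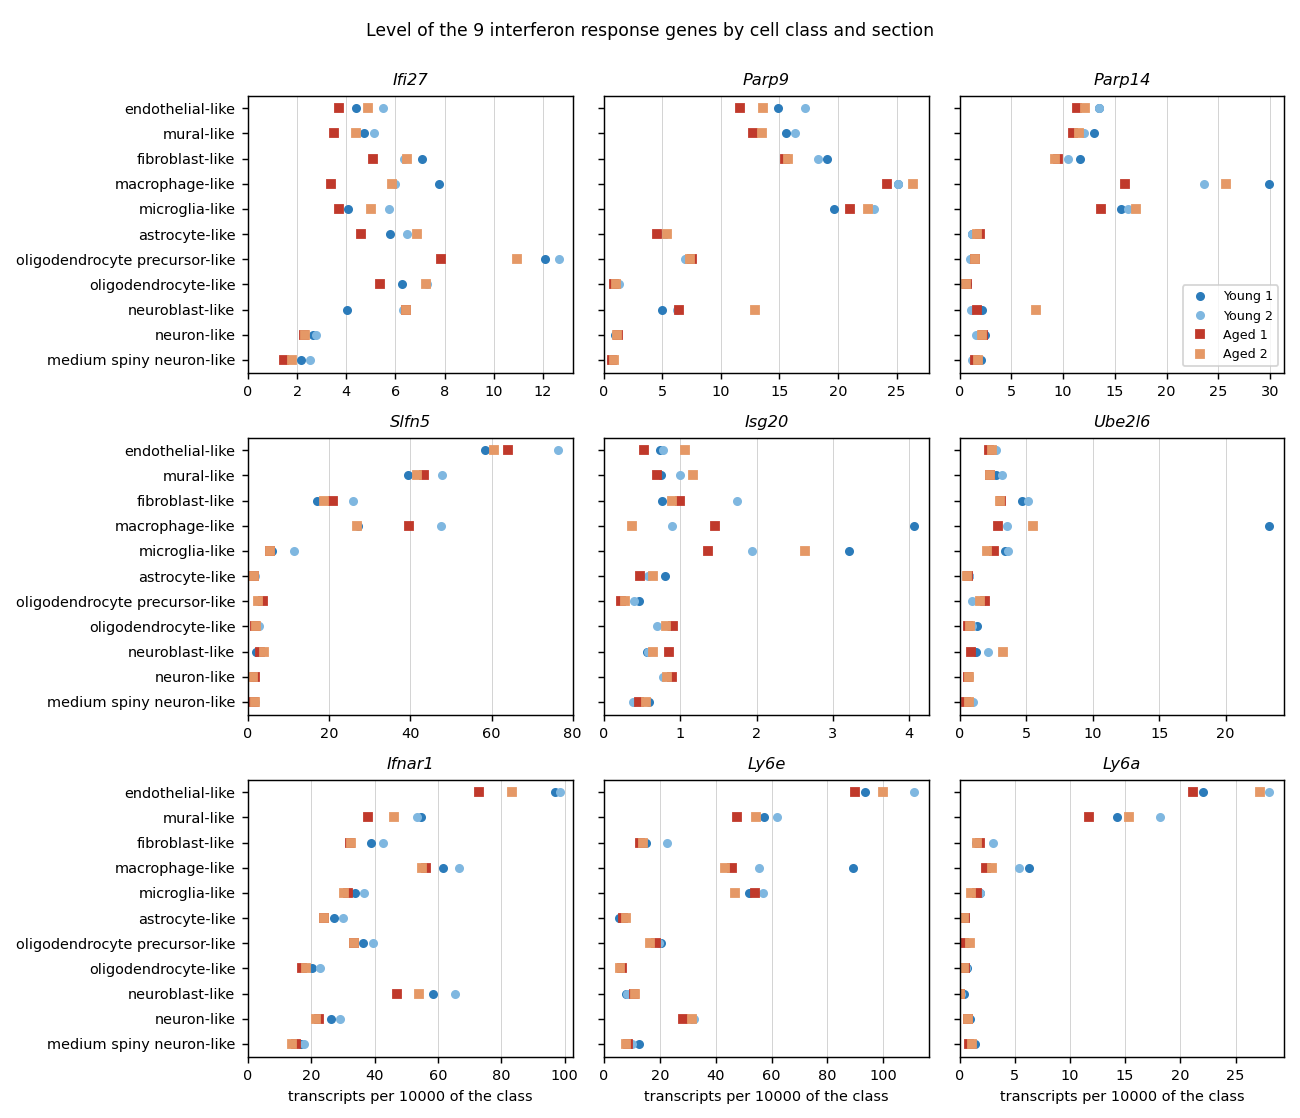
Level of each of the 9 genes (x axis, transcripts per 10000 transcripts of the class) in 11 cell classes (y axis), with 1 point per section, circles for 2 months and squares for 18 months; the x axes differ between genes. Slfn5, Ly6e, Ly6a and Ifnar1 are highest in endothelial-like cells in all 4 sections, Parp9 and Parp14 in macrophage-like or microglia-like cells, and Ifi27 in oligodendrocyte precursor-like cells.

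The receptor gene Ifnar1 was measured in every class. In endothelial-like cells its level was 97.1 and 98.4 at 2 months and 72.9 and 83.5 at 18 months, with a mean of 88.0 ± 12.1 (SD, n = 4). Macrophage-like cells followed at 59.9 ± 5.36, neuroblast-like cells at 56.3 ± 7.73 and mural-like cells at 48.0 ± 7.67, and the ranges of these 3 classes overlapped. Medium spiny neuron-like cells had the lowest level, 15.8 ± 1.65. The endothelial level was above that of every other class in each section, and its log2 difference from the mean of the other classes was 1.42 (SE 0.04, adjusted p = 1.6e-28). Of its transcripts in all kept cells, 33.1% lay in neuron-like cells (29.9% to 36.9% per section). After each cell was thinned to 100 transcripts, Ifnar1 was seen in 56.6% of endothelial-like cells and in 14.8% of medium spiny neuron-like cells.

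Slfn5, an intracellular target, was highest in vascular cells. Its level in endothelial-like cells was 58.4 and 76.3 at 2 months and 64.1 and 60.5 at 18 months. Mural-like cells, named from markers of the pericytes and smooth muscle cells of vessel walls, had 39.4, 47.7, 43.2 and 41.6 in the same order of sections. Macrophage-like cells had 35.3 ± 10.2. No section of another class reached the lowest endothelial value, and the mean level was at most 2.88 in all classes of glia and neurons other than microglia-like cells (6.96 ± 2.90). The log2 difference was 3.68 in endothelial-like cells (SE 0.08, adjusted p = 3.0e-34), 3.04 in mural-like cells and 2.70 in macrophage-like cells. Endothelial-like cells held 43.6% of all Slfn5 transcripts (41.8% to 45.6%).

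Ly6a was measured mainly in vessel cells. Endothelial-like cells had levels of 22.1, 28.0, 21.1 and 27.2 in the 4 sections (young 1, young 2, aged 1, aged 2), and mural-like cells had 14.2, 18.1, 11.7 and 15.4. The ranges of the pair did not overlap, and the next class, macrophage-like cells, had 4.26 ± 1.87. Every class of neurons, astrocytes and oligodendrocyte lineage cells had a mean of at most 1.06. The log2 difference was 4.38 in endothelial-like cells (SE 0.10, adjusted p = 3.2e-33).

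Ly6e, its neighbour on chromosome 15, was also measured at a higher level in immune cells and neurons. Endothelial-like cells again led, with 93.4, 111, 89.9 and 100 in the 4 sections. Macrophage-like (58.4 ± 21.0), mural-like (55.4 ± 5.87) and microglia-like cells (52.5 ± 4.28) overlapped one another and stood above neuron-like cells (30.9 ± 1.73). Ly6e was the only member whose test against the mean log level of the other classes passed as higher in neuron-like cells (log2 0.54, adjusted p = 4.4e-06). Medium spiny neuron-like cells had 9.75 ± 1.99. Within neuron-like clusters it ranged from 11.5 in a cluster led by Ano1 and Gad2 to 34.0 in one led by Ddit4l and Rgs4. Across cells of the same class and depth, Ly6e and Ly6a were seen together in 2393 thinned cells where 2007 were expected from their separate shares, a ratio between 1.17 and 1.21 in every section.

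Mural-like cells shared much of the endothelial profile, and so did their other genes. The 8 marker genes of endothelial-like cells were measured in mural-like cells at 41.5% to 75.2% of their endothelial level (median 55.2%), and Slfn5 was there at 66.3%, Ly6a at 60.4%, Ly6e at 56.2% and Ifnar1 at 54.5% of its endothelial level. Parp9 stood at 101% of it. Of 8821 mural-like cells, 3996 came from a cluster led by Acta2 and Myl9 but also by Bmx, Tm4sf1, Podxl and Sema3g, which are not mural markers here. Endothelial-like and mural-like cells counted as closely related, so cells with markers of both were kept in the levels. Pericytes and endothelial cells also touch. The part of endothelial cells and of neighbouring transcripts in the mural levels was not tested. In macrophage-like cells the same markers were at 5.93% to 13.1% of the endothelial level while Slfn5 was at 54.4% and Ifnar1 at 68.1%. In 1 microglia-like cluster of 553 cells Slfn5 was 23.6, against 2.66 to 5.45 in the others, and Cldn5, a junction gene of endothelium, was 4.46 there, against 0.51 to 1.11.

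Parp9 and Parp14, which lie together on chromosome 16, were highest in immune cells. Parp9 had levels of 25.1, 25.1, 24.2 and 26.4 in macrophage-like cells and of 19.7, 23.05, 21.0 and 22.6 in microglia-like cells. These were the highest and second highest classes and did not overlap each other or the third, fibroblast-like cells (17.2 ± 1.79). Parp14 was at 23.8 ± 5.84 in macrophage-like cells and 15.7 ± 1.44 in microglia-like cells, followed by endothelial-like cells with 12.6 ± 1.06. The log2 difference in microglia-like cells was 2.03 for Parp9 (SE 0.09, adjusted p = 3.4e-23) and 2.13 for Parp14 (SE 0.12, adjusted p = 4.8e-19).

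The pair parted in oligodendrocyte precursor-like cells. Parp9 was at 7.22 ± 0.28 in oligodendrocyte precursor-like cells and 5.08 ± 0.35 in astrocyte-like cells, where its highest section was below the lowest of every vascular and immune class. Set against the mean log level of the other classes, the test passed as higher for Parp9 in oligodendrocyte precursor-like cells (log2 0.29, adjusted p = 0.014). Parp14 was lower than the mean of the other classes in the same cells (log2 -1.89, adjusted p = 8.0e-11). In astrocyte-like cells both passed as lower (log2 -0.26 for Parp9, adjusted p = 0.017, and -1.61 for Parp14), as they did in oligodendrocyte-like cells (-2.76 and -2.98). Medium spiny neuron-like cells had the lowest level of Parp9 (0.68 ± 0.13) and oligodendrocyte-like cells the lowest of Parp14 (0.63 ± 0.12). Among astrocyte-like clusters both were highest in the one led by Thbs4 and Gfap, with 8.53 (6.78 to 11.4 over sections) for Parp9 and 3.37 (1.64 to 5.51) for Parp14. In 5 of the other 6 astrocyte-like clusters Parp14 lay at or below 1.65.

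Ube2l6 and Isg20 were low in every class, and their values rest on few transcripts. Ube2l6 had 23.3, 3.59, 2.91 and 5.51 in macrophage-like cells, so young section 1 stood far above the other 3. In that section 3 macrophage-like cells held 20 or more transcripts of Alas2, the gene of erythroid heme synthesis, and these cells carried 42 Ube2l6 among 686 transcripts; without them the level of young section 1 was 7.96. Fibroblast-like cells had 3.99 ± 1.10 and microglia-like cells 2.92 ± 0.71. All of these passed as higher, with log2 differences of 2.52, 1.30 and 0.80, and without young section 1 that of macrophage-like cells was 1.45 (adjusted p = 0.00037). Isg20 was on average highest in microglia-like cells at 3.21, 1.94, 1.37 and 2.64, from 28 to 112 transcripts a section (log2 1.61, adjusted p = 8.8e-11). Macrophage-like cells had 4.06, 0.90, 1.45 and 0.37, from 1 to 11 transcripts, and so lay above microglia-like cells in young section 1 and aged section 1. In every further class it was at most 1.10.

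Ifi27 had a pattern of its own. It was highest in oligodendrocyte precursor-like cells, with 12.1 and 12.7 at 2 months and 7.87 and 10.96 at 18 months. No section of another class reached these values. Oligodendrocyte-like (6.55 ± 0.92), fibroblast-like (6.25 ± 0.83), astrocyte-like (5.93 ± 0.99) and neuroblast-like cells (5.80 ± 1.18) overlapped one another. Endothelial-like cells had 4.61 ± 0.77 and medium spiny neuron-like cells 1.98 ± 0.46. The log2 difference in oligodendrocyte precursor-like cells was 1.27 (SE 0.08, adjusted p = 4.0e-17), and those of endothelial-like and microglia-like cells missed the threshold (both -0.09, adjusted p = 0.31 and 0.39).

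As a description of likeness, mean log2 levels were correlated over the 11 classes, which share sections and neighbouring cells. The 2 panel genes most like each member were the endothelial genes Cldn5 (r = 0.98) and Cyyr1 (0.96) for Ly6a, Tnfsf10 (0.98) and Klf2 (0.96) for Slfn5, Pdgfb (0.94) and Cd34 (0.89) for Ly6e, and Tpm4 (0.86) and Bsg (0.86) for Ifnar1. Parp9 was most like Parp12 (0.95) and H2-K1 (0.93), and Parp14 most like Fam129a (0.99) and Il10rb (0.96). For Ube2l6 these were B2m (0.91) and Parp14 (0.88), for Isg20 the microglial gene Tmem119 (0.89) and Icam1 (0.86), and for Ifi27 Stat3 (0.80) and Jun (0.79). Among the members themselves, r ran from -0.14 for Ifi27 with Ly6a to 0.88 for Parp14 with Ube2l6.

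The change from 2 to 18 months was tested with edgeR on transcripts summed per section in the 9 classes that had 200 or more cells in each of the 4 sections. Of 80 pairs of member and class, 0 passed the threshold, where 1.15% of the 3397 pairs of all panel genes did. At an unadjusted p under 0.05 there were 5 member pairs, beside 9.89% of all pairs, and DESeq2 and limma-voom also called 0. The smallest adjusted p of a member was 0.25, for Ube2l6 in oligodendrocyte-like cells. In all kept cells together 0 of 9 members passed in edgeR (1.31% of all genes did), in DESeq2 and in limma-voom, and 0 had an unadjusted p under 0.05 in any of these tools, with log2 differences from -0.28 for Ube2l6 to 0.05 for Parp9.

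Most of these differences were below 0. In 35 of the 80 pairs (43.8%) the higher of the aged values was under the lower of the young ones, beside 18% of the pairs of all genes, and in 6 pairs both aged values lay above both young ones, beside 22.4%. The median log2 difference of the member pairs was -0.21, beside 0.00 over all pairs, and 61 were below 0. Pairs share sections and are not independent, and the aged sections had fewer transcripts per cell; the part of depth in this was not tested.

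Ifnar1 gave the most even picture. The aged values were under the young ones, with no overlap, in 9 of 9 classes, with log2 differences between -0.36 and -0.21. In astrocyte-like cells its level was 27.3 and 29.9 at 2 months and 24.1 and 24.1 at 18 months, and in microglia-like cells 33.9 and 36.6 against 31.6 and 30.4. The groups do not overlap in either class, yet the smallest adjusted p, in endothelial-like cells, was 0.39 (log2 -0.36, SE 0.14). Ube2l6 was lower in both aged sections in 7 of 9 classes, with 3.38 and 3.63 against 2.59 and 2.07 in microglia-like cells (log2 -0.69, SE 0.32, adjusted p = 0.46).

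The other pairs with an unadjusted p under 0.05 pointed in both directions. Parp14 in astrocyte-like cells was 1.17 and 1.18 at 2 months and 1.93 and 1.70 at 18 months, from 138 to 197 transcripts a section. The aged sections lay above the young ones, with a log2 difference of 0.61 (SE 0.27, adjusted p = 0.53). Slfn5 in microglia-like cells was 5.78 and 11.3 against 5.43 and 5.32, so that young section 2 alone stood high (log2 -0.77, SE 0.31, adjusted p = 0.33). Parp9 in microglia-like cells, with 19.7 and 23.05 against 21.0 and 22.6, had overlapping groups. The same held for Ly6a and Slfn5 in endothelial-like cells, whose values are given above.

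**Figure D2:**
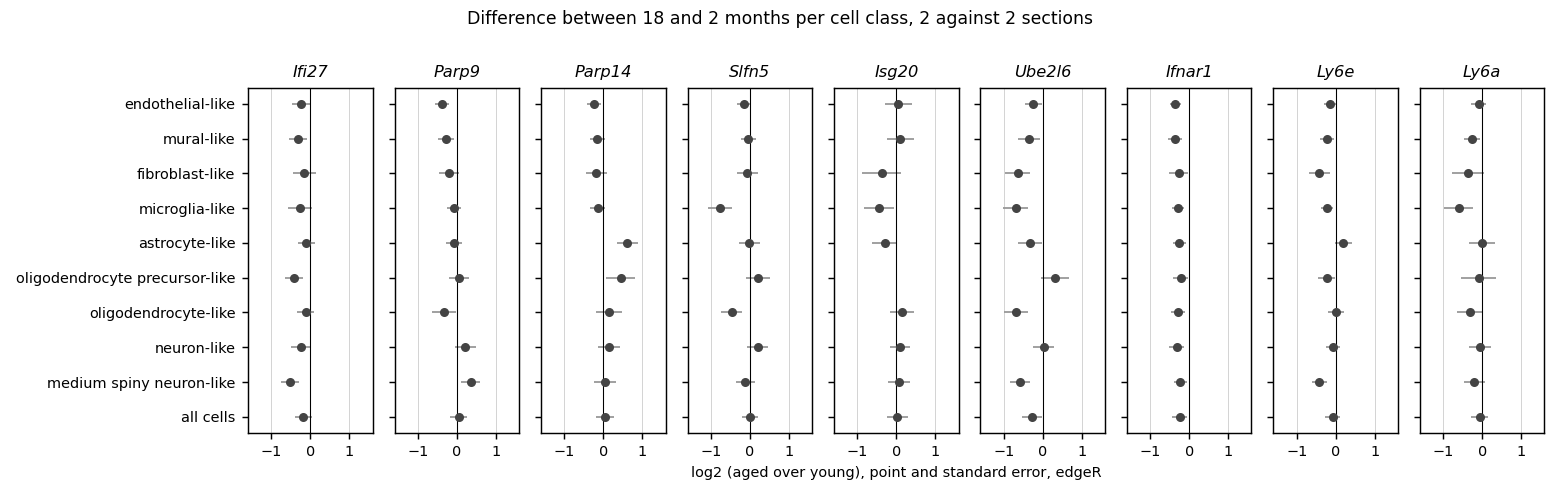
Difference between 18 and 2 months (x axis, log2 of aged over young with its standard error from edgeR, 2 against 2 sections) for each of the 9 genes in 9 cell classes and in all kept cells (y axis). None passed the threshold of 0.05 after adjustment; Ifnar1 lies left of 0 in every class and Parp14 in astrocyte-like cells lies right of it.

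Of the 16 other interferon pathway genes, 0 of 143 pairs of gene and class passed in edgeR and in limma-voom, with 11 and 10 pairs at an unadjusted p under 0.05. DESeq2 called 1 pair (9 unadjusted), Cxcl10 in neuron-like cells (log2 1.26, SE 0.29, adjusted p = 0.0064, against 0.49 in edgeR), named after its values were seen. In all kept cells together 1 of them passed in edgeR, Cxcl10, which encodes a chemokine that draws T cells: log2 0.97 (SE 0.24, adjusted p = 0.047). A neuron-like cluster led by Meg3 and Cxcl10 had a median of 79 transcripts per cell, against 215 to 400 in whole sections. It held 2639 and 4289 cells at 2 months and 6132 and 4195 at 18 months. The part of this cluster and of depth in the Cxcl10 difference was not tested. The log2 difference of Cxcl10 in all kept cells lay between 0.64 and 1.22 in 15 alternative settings. The call was kept in 5 of them, DESeq2 included (adjusted p = 0.0066), and lost in 10, among them each of the 4 fits without 1 section (adjusted p from 0.058 to 0.98).

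White matter, defined as places where at least 50% of the cells within 100 µm were oligodendrocyte-like, differed from the rest of the section in 7 of 36 pairs of member and class tested, where 42.6% of the pairs of all panel genes passed. Ly6e accounted for 3 of these. In oligodendrocyte-like cells its level was 3.89, 3.48, 2.78 and 2.37 in white matter and 6.93, 7.20, 8.24 and 7.96 elsewhere, so no section overlapped (log2 -1.01, SE 0.14, adjusted p = 2.3e-05). Astrocyte-like cells of white matter also had less of it, 2.97 ± 1.03 against 7.10 ± 1.11 (log2 -1.14, adjusted p = 0.00011). Genes of neurons moved the same way in both classes. In oligodendrocyte-like cells the synaptic vesicle gene Syp was 9.97 in white matter and 44.8 elsewhere and the neuronal gene Stmn2 was 3.59 and 30.6. In astrocyte-like cells Syp was 9.48 and 34.7 and Stmn2 2.57 and 24.9, and the part of neuronal transcripts in the Ly6e difference was not tested. Endothelial-like cells had more Ly6e in white matter, higher in 4 of 4 sections (log2 0.36, adjusted p = 0.011). Their own marker Cldn5 was 52.1 there and 40.02 elsewhere and Syp was 5.41 and 32.5, and the part of these was not tested. The Ly6e call in endothelial-like cells was lost at a white matter threshold of 30% or 70% and without aged section 1.

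Ifi27 and Slfn5 passed as higher in oligodendrocyte-like cells of white matter, with log2 estimates of 0.61 (SE 0.13, adjusted p = 0.00088) and 0.48 (SE 0.14, adjusted p = 0.011). Their levels differed by less, with means of 7.65 against 6.03 for Ifi27 and 2.38 against 2.06 for Slfn5. In these cells Ifnar1 had a log2 estimate of 0.21 (adjusted p = 0.13 in edgeR), though its mean level was 18.9 in white matter and 19.9 elsewhere. The estimates of the zone test thus lay above what the levels give for these genes, and the part of this in the calls was not tested. Ifi27 was 7.08, 9.55, 5.69 and 8.28 in white matter and 5.97, 6.30, 5.18 and 6.66 elsewhere, so higher in each of the 4 sections. Slfn5 was 2.60, 3.17, 1.67 and 2.09 against 2.25, 2.41, 1.78 and 1.78, higher in 3 of 4 sections. For Slfn5 the call was lost at a white matter threshold of 30% (adjusted p = 0.072) and without aged section 2 (0.075). In astrocyte-like cells Parp9 was 4.98 ± 0.37 outside and 7.84 ± 3.41 in white matter (log2 0.73, SE 0.21, adjusted p = 0.0041), and young section 2, at 12.9, stood apart from the other sections at 5.80, 6.06 and 6.57. Parp14 was 0.45, 5.06, 4.85 and 3.28 in white matter, from 57 transcripts in all, and 1.42 ± 0.34 elsewhere (log2 1.30, SE 0.34, adjusted p = 0.0018). Both of these calls were lost without young section 2 (adjusted p = 0.064) and at a white matter threshold of 70%, and that of Parp14 also without aged section 2 (0.059). In young section 2, a spot described at the end lay where oligodendrocyte-like cells were on average 46.3% of the surrounding cells. Without 8 astrocyte-like cells of the spot, Parp14 in that class of the whole section went from 1.18 to 1.05 and Parp9 from 5.15 to 5.01. The part of the spot in these zone differences was not tested. Of 58 pairs of the other pathway genes and these classes, 12 passed as higher in white matter and 1 as lower, beside 256 and 366 of the 1461 pairs of all panel genes. The change of the members' zone differences with age passed for 0 of the 36 pairs in edgeR, the only tool run here, beside 2.33% of all pairs, and 1 pair had an unadjusted p under 0.05. Without young section 1 the test passed for 1 pair, Parp14 in oligodendrocyte-like cells.

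To find single cells with several members, every cell with at least 100 transcripts was thinned to 100. A cell was called positive when at least 3 of the 6 induced intracellular members (Ifi27, Parp9, Parp14, Slfn5, Isg20 and Ube2l6) were detected. Such cells were rare: 142 of 59445 (0.239%, 95% Wilson interval 0.203% to 0.281%) in young section 1, 228 of 58717 (0.388%, 0.341% to 0.442%) in young section 2, 71 of 52478 (0.135%, 0.107% to 0.171%) in aged section 1 and 114 of 61594 (0.185%, 0.154% to 0.222%) in aged section 2. The intervals cover counting error only. Both aged sections were below both young ones, and the difference was -0.153 percentage points (two-sided exact permutation p = 0.33, the smallest that 2 against 2 sections can give). Before thinning the shares were 3.86%, 3.17%, 1.01% and 2.00%, and their order is that of the median transcripts per cell of the sections.

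Positive cells were mostly cells of vessels. Endothelial-like cells made up 49.2% of the 555 positive cells and 6.28% of the cells examined, mural-like cells 21.3% and 2.97%, and microglia-like cells 14.1% and 3.36%. The share of positive cells within a class was highest in macrophage-like cells, at 3.77% (24 of 637), followed by 1.87% in endothelial-like and 1.71% in mural-like cells. Of 59783 medium spiny neuron-like cells 1 was positive. Slfn5 was among the genes seen in 86.3% of positive cells, Parp9 in 81.8%, Parp14 in 74.6%, Ifi27 in 29.5% and Isg20 in 10.8%. With mixed cells left out, Slfn5 was detected in 45.9% of thinned endothelial-like, 31.8% of mural-like and 1.33% of neuron-like cells. The large share of vessel cells thus follows in part from counting Slfn5 and is a description. Within class and depth, Parp9 and Parp14 were seen together in 678 cells where 501 were expected (ratio 1.17 to 1.51 per section), and Parp9 and Ube2l6 in 174 where 118 were expected (1.30 to 1.89). These are the high end of the range: of the 15 pairs among the 6 genes, 4 had a ratio above 1 in every section, and the mean ratio was 0.91 for Parp14 with Isg20 and 1.004 for Ifi27 with Parp14.

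**Figure D3:**
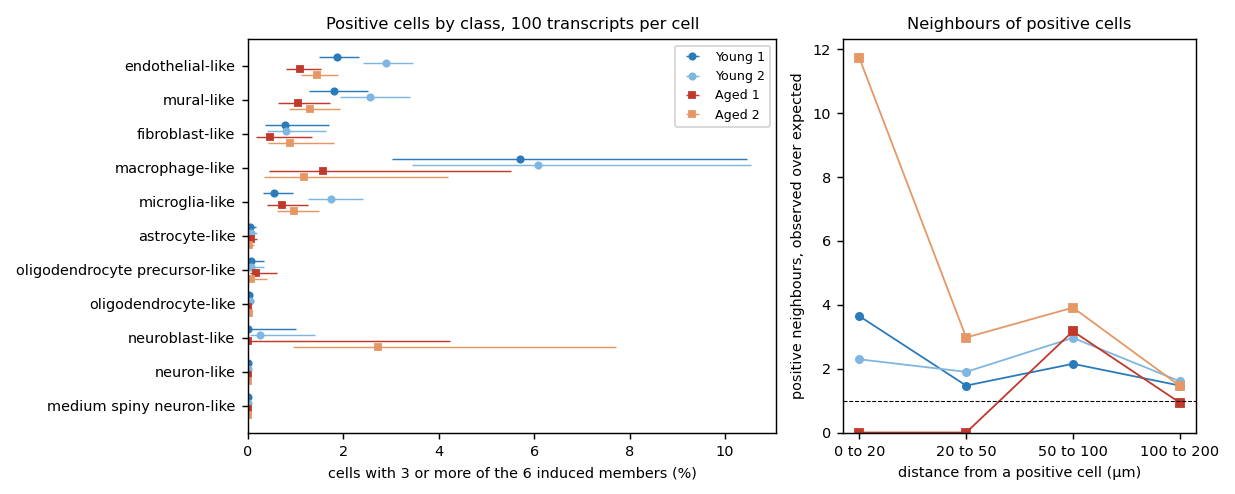
Left, share of cells with at least 3 of the 6 induced genes (x axis, percent, with 95% Wilson intervals) by cell class (y axis) and section after thinning to 100 transcripts; right, positive neighbours of positive cells over the number expected from class and depth (y axis, 1 is the dashed line) by distance (x axis, 4 ranges from 0 to 200 µm). Over all sections shares are highest in macrophage-like, endothelial-like and mural-like cells, and in aged section 2 neuroblast-like cells stand highest. The ratio is above 1 between 50 and 100 µm in all 4 sections, at 2.15, 2.96, 3.17 and 3.91, and under 20 µm, where aged section 2 stands at 11.7 and aged section 1 at 0, it rests on at most 20 neighbours a section.

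Positive cells lay near each other more often than expected from class and depth. Within 100 µm of a positive cell, 54 neighbours were positive where 25.7 were expected in young section 1, 118 where 44.0 were expected in young section 2, 10 where 4.49 were expected in aged section 1 and 62 where 13.1 were expected in aged section 2. Each pair of cells was counted from both ends. The ratios were thus 2.10, 2.68, 2.23 and 4.74, each above 1, and the ages overlapped (two-sided exact permutation p = 0.667). Under 20 µm they were 3.64, 2.29, 0 and 11.7, from 8, 8, 0 and 20 positive neighbours, and between 20 and 50 µm 1.47, 1.90, 0 and 2.98. Between 100 and 200 µm they were 1.47, 1.61, 0.94 and 1.47. Taken gene by gene over all cells between 20 and 100 µm, the ratio was near that of the panel, whose median over the 383 genes was 1.09 (quartiles 1.04 and 1.17). It was 1.15 for Ube2l6, 1.12 for Parp14, 1.09 for Ifi27, Parp9 and Isg20, and 1.05 for Slfn5. Ly6e had 1.10, Ly6a 1.07 and Ifnar1 1.03. The value of Ube2l6 was 1.40 in aged section 1 and 1.06 to 1.07 in the other sections.

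The nearness was lower once a few small spots were left out, as given at the end. The spots were chosen for Parp9 and Parp14, which also count towards positive cells, so this follows in part from that choice. The tissue was searched, with thresholds set after the values had been seen, for disks of 100 µm radius with at least 20 transcripts of Parp9 and Parp14 and at least 5 times the number expected from the class of each cell. Exactly 1 place per section met this. The spot of young section 1 held 94 transcripts of the pair where 17.5 were expected (5.37 times), that of young section 2 had 140 where 10.6 were expected (13.2 times), that of aged section 1 had 71 where 6.39 were expected (11.1 times) and that of aged section 2 had 142 where 17.4 were expected (8.15 times). The highest ratio elsewhere was 4.58, 4.43, 3.85 and 4.50, so the spot of young section 1 was just inside the threshold and the other 3 were far from it. At a threshold of 8 times 0, 1, 1 and 1 spots remained, and at 3 times there were 5, 16, 5 and 10.

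The centre of each disk was chosen for its number of Parp9 and Parp14, so a fall of the pair with distance follows in part from that choice and is given as a description. In young section 2 the pair stood at 10.2 times its expected number within 25 µm of the centre, 28.3 times between 25 and 50 µm, 9.11 times between 50 and 100 µm and 2.18 times between 100 and 150 µm. Aged section 1 gave 15.9, 28.6, 5.56 and 1.61 times at the same distances. Aged section 2 fell less evenly, with 12.4, 10.1, 4.18 and 2.43 times, then 3.16 times between 150 and 200 µm and 1.89 times between 200 and 300 µm. By 300 to 500 µm the ratio lay between 0.83 and 1.27 in all 4 sections. Each disk held 60 to 94 cells.

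Since Parp9 and Parp14 defined the spots, the other genes are those of interest there, and all ratios are descriptions without a test. Slfn5 was above its expected number in all 4, with 47 transcripts where 12.8 were expected in young section 1, 34 where 13.7 were in young section 2, 17 where 4.67 were in aged section 1 and 38 where 8.87 were in aged section 2. Ube2l6 stood at 2.64, 6.70, 3.57 and 4.79 times its expected number, from 3 to 12 transcripts. The receptor gene Ifnar1, by contrast, was at 0.69, 1.15, 1.08 and 0.93 times and Ly6e at 1.08, 0.96, 1.09 and 0.99 times. Ifi27 lay between 1.10 and 2.12 times, and Ly6a between 0.59 and 6.04 times from 2 to 11 transcripts.

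Of the 16 interferon pathway genes outside the set, 10 were above their expected number in every spot (62.5%), beside 31 of the 381 panel genes other than Parp9 and Parp14 (8.14%). Some were barely so, such as Cd74 with 2 transcripts where 1.98 were expected in young section 1. Parp12, a further ADP-ribosyltransferase gene, was at 3.94, 6.49, 3.64 and 4.04 times its expected number. Cxcl10 was at 1.92, 68.1, 5.69 and 9.87 times, and in young section 2 the spot held 118 of its transcripts where 1.73 were expected. The antigen presentation genes B2m and H2-K1 were above 1 in each spot, from 1.73 to 4.47 and from 1.35 to 7.48 times. Irf8, a transcription factor of microglia, was not raised in young section 2 (0.49 times) and lay between 0.94 and 1.41 in the others.

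Further genes were in part shared between the spots and in part their own. The genes with the highest ratio after the pathway genes were C4b (2.89 times) and Penk in young section 1. In young section 2 they were Tnf, Thbs4, Gfap and C4b (4.31 times). In aged section 1 they were Rassf9, Pltp, Nnat and Vim, together with 19 cells of an unnamed cluster led by Rassf9 and Nnat, and in aged section 2 Ccl2, Gfap and Thbs4. Expected numbers for unnamed cells pool that cluster of 1123 cells with one of 18657 cells led by Sst and Elavl2. The 19 cells held 11 transcripts of Parp9 and Parp14 where 1.93 were expected. The part of this pooling in the ratios of the spot of aged section 1 was not tested. Medium spiny neuron-like cells were on average 58.0% of the cells around those of the spot in young section 1 and 0.46% in young section 2, where oligodendrocyte-like cells were 46.3%. The spots lay in unlike tissue.

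The excess of the pair over a whole disk was fixed by the search, and its split over classes is a description. In the spot of young section 2, 9 astrocyte-like cells had a summed level of Parp9 and Parp14 of 265 per 10000, against 5.85 for that class in the whole section, and 29 oligodendrocyte-like cells had 35.4 against 1.96. In that of aged section 2, 5 microglia-like cells had 287 against 23.7, 7 neuroblast-like cells had 207 against 20.4 and 15 astrocyte-like cells had 60.02 against 6.48. The 19 medium spiny neuron-like cells of the same spot held 1 transcript of the pair where 2.54 were expected, while the 38 in young section 1 held 19 where 5.99 were expected.

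**Figure D4:**
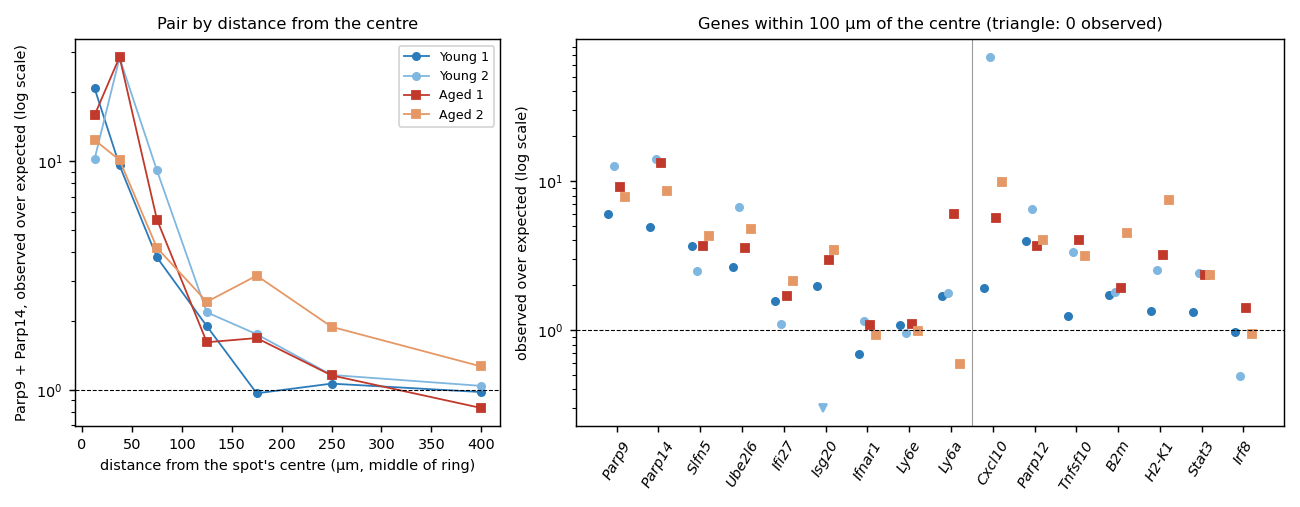
Left, transcripts of Parp9 and Parp14 over the number expected from cell class (y axis, log scale) by distance from the centre of the spot in each section (x axis, µm); right, the same ratio for the 9 genes and for 7 other pathway genes within 100 µm (log scale, the triangle marks Isg20 with 0 transcripts in young section 2). The ratio of the pair, which chose the centres, lies between 1.61 and 2.43 at 100 to 150 µm in all 4 sections, and Ifnar1 and Ly6e lie between 0.69 and 1.15 while Parp12 and Ube2l6 lie above 2.

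A few cells could thus carry a class value. In neuroblast-like cells of aged section 2 the level of Parp9 was 12.9, and without the 7 cells of the spot it was 4.81, below the 4.99 to 6.41 of the other sections. Parp14 went from 7.42 to 3.09 in the same cells. In astrocyte-like cells of young section 2, Cxcl10 went from 0.67 to 0.069 without 8 cells, whereas Parp9 in endothelial-like cells changed by at most 0.31% in any section. Without the 4 spots the ratio of positive neighbours was 2.05, 2.33, 1.84 and 0.91, so that of aged section 2 no longer stood above 1. The spots were chosen for Parp9 and Parp14, and both genes also count towards positive cells. The falls of these 2 genes and of the neighbour ratio thus follow in part from that choice and are descriptions.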

How the data were processed

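MERFISH measured 383 genes in 4 coronal sections. Images were decoded by the authors with MERLIN, and cells were outlined with Vizgen software. The deposited counts are whole transcripts per gene and cell, neither normalized nor filtered. The authors also deposited each cell's volume and position and a table of the mean count per gene and section, which was used to check the reading of the files. In both young sections the cell labels are numbered differently from the titles, which were followed here. The members and the gene lists were chosen with earlier results of these data known.

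As in the study, cells had to have at least 10 genes and a volume of at least 50 µm³. Clusters came from the Louvain method in 2 steps (resolutions 0.08 and 0.3) on 358 genes, and class names are rebuilt. For mixed cells, the share of transcripts from the markers of another, not closely related class was at least 50% of that class's own share. The rule for named genes took all 9 members, other pathway genes past the threshold of 0.05 with age in a class, the 2 genes most like each member, and markers of classes whose transcripts a level could hold; other pathway genes named at the spots and in all kept cells were chosen after their values were seen. Tests used edgeR 4.0.16 (TMM and filterByExpr for ages, plain totals between classes), with DESeq2 1.42.0, limma 3.58.1 and the other settings of the closing section as alternatives, in R 4.3.3, Python 3.11.15 and SciPy 1.17.1, and were tested on simulated data. Sections held 18765491 to 36035355 transcripts in kept cells. Gene coordinates come from GENCODE and promoters from RefSeq.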

Additional observations from a re-analysis of the deposited data

How the results depend on the processing

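The 0 changes with age in classes stayed 0 in 16 alternatives, and those in all kept cells stayed 0 in 15, with each section left out included. For the other counts, leaving out 1 section gave 36 to 40 pairs of member and class above the other classes (38 with all sections), 5 to 8 zone differences, 0 to 1 changes of zone differences with age (the 1 without young section 1, Parp14 in oligodendrocyte-like cells), a difference in positive cells of -0.228 to -0.0787 percentage points and a mean neighbour ratio of 2.34 to 3.22. White matter at 70% gave 4 calls in place of 7. Under 20 µm, a distance chosen after seeing the data, the mean neighbour ratio was 4.41 in place of 2.94. It was 1.59 between 20 and 50 µm and 1.37 between 100 and 200 µm. For cells with at least 2 members it was 1.17, and for at least 4, where few cells remained, it was 0. Without the 4 spots, a setting chosen after seeing the data, it was 1.78. The spots were chosen for Parp9 and Parp14, which also count towards positive cells. With the replicate number as a block, 0 members changed with age, and same-numbered sections had deviations correlated at -0.26 in all kept cells; the crossed pairing, also chosen after seeing the data, gave 0 calls. A change of the size seen for Ifnar1 could be missed with 2 sections per age, and Isg20 and Ube2l6 rest on few transcripts.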
